A study of Danio rerio with 3 samples.

Results

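The miscRNA entries of the expression table are transcripts whose type is given as miscellaneous RNA, a class apart from mRNA and from noncoding RNA (ncRNA). All entries of this type were taken, 521 of the 21098 transcripts listed, beside 19824 mRNA and 753 ncRNA entries. RNA was measured by sequencing of whole zebrafish (Danio rerio) larvae of the strain Tuebingen at 6 days post fertilization. Larvae were exposed to BDE47, a tetrabrominated diphenyl ether of the group used as flame retardants, at 5 μg/L or at 500 μg/L, dissolved in dimethyl sulfoxide (DMSO), and the control larvae received the DMSO vehicle alone, so every group carries DMSO. Here vehicle, low dose and high dose stand for these groups, and each was 1 pool of larvae and 1 library, made from RNA captured by its poly(A) tail.

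In RefSeq annotation, miscellaneous RNA is a class for transcript models that meet the definition of no other class. Many such models of draft genomes lie on loci that resemble protein genes but for which no intact reading frame was modelled, whether from a gap or error in the assembly or because the locus is a pseudogene, and others are partial or alternative transcripts of coding genes. A miscRNA label therefore says how a locus was modelled and not that its RNA has no protein product.

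Of the 521 members, 491 were named by a locus number alone and 30 by another symbol. The description was "uncharacterized" for 293 members and held "-like" for 160, while 5 were described as pseudogenes. Against a later RefSeq gene table, made on the assembly GRCz12tu and used here for names and classes only, 275 members were matched and 246 were not. The matched loci were classed there as protein coding for 209 members, lncRNA for 41, misc_RNA for 9, pseudogene for 9 and transcribed pseudogene for 7. Most matched members thus carry a protein-coding class in the later annotation.

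The 3 libraries held 41474296 reads for vehicle, 30463582 for the low dose and 27004647 for the high dose over all entries. Values are normalized counts, and 1 read was worth 0.790, 1.09 and 1.25 of them in the same order, so that a floor of 3 reads stands at 2.37, 3.28 and 3.75. Of 14 tissue markers checked for whole larvae (muscle, skin, pancreas, liver, retina, blood and neurons), 13 were at 800 or more normalized counts in all 3 libraries, and the embryonic globin hbbe3 was under 10 in each. With 1 library a group there is no replicate check: ratios carry no test, and the 95% intervals given are exact Clopper-Pearson intervals that cover counting error only. Reads copied by PCR are not independent molecules, so the intervals may be too narrow even for counting error. In whole larvae, fewer cells of a type and less RNA per cell cannot be told apart.

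In normalized counts, the miscRNA entries were close to mRNA entries and far above ncRNA entries. Transcript length and poly(A) capture bear on such counts and were not accounted for, so this does not compare expression between classes. The median of the miscRNA entries was 188 normalized counts with vehicle, 209 with the low dose and 192 with the high dose. The mRNA medians were 247, 242 and 241 and the ncRNA medians 3.16, 2.19 and 3.75. The quartiles of the members ran between 48.2 and 598 with vehicle, 49.2 and 606 with the low dose, and 46.2 and 682 with the high dose. At least 10 normalized counts were reached by 451 members with vehicle, 459 with the low dose and 453 with the high dose, and by 441 in all 3 libraries. Of the rest, 54 members stayed under 10 in every library, and 6 had no read in any. By their highest library, 128 members lay between 10 and 100, 233 between 100 and 1000, 91 between 1000 and 10000, and 15 at 10000 or more.

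**Figure D1:**
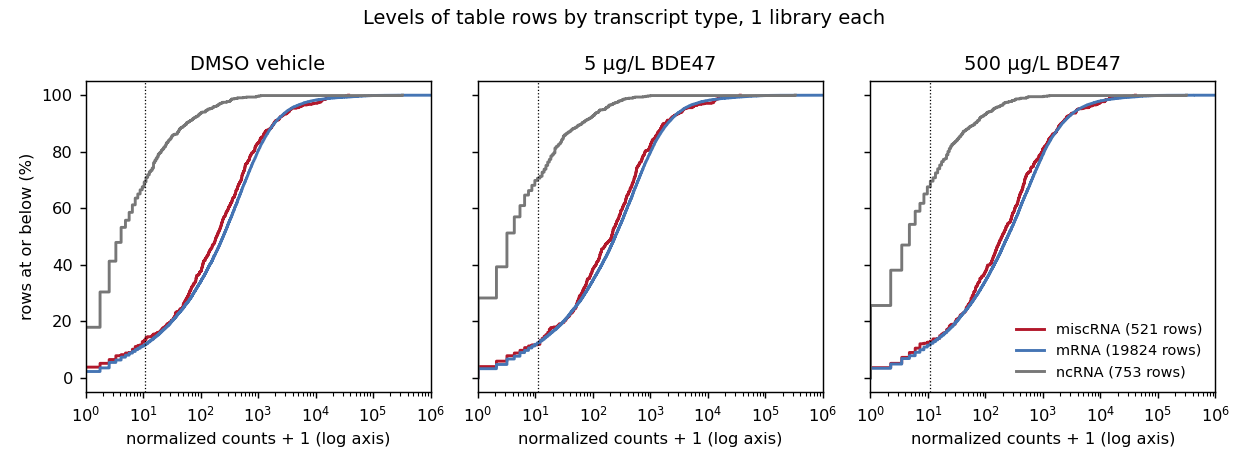
Cumulative share of table entries (vertical axis, percent) at or below a level (horizontal axis, normalized counts plus 1, log axis) for miscRNA, mRNA and ncRNA entries in the vehicle, low dose and high dose libraries; the dotted line marks 10 normalized counts. The miscRNA curve runs beside the mRNA curve in all 3 libraries, with medians of 188, 209 and 192, and the ncRNA curve lies far to the left.

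Members took 1.64% of all reads in the table with vehicle, 1.61% with the low dose and 1.71% with the high dose. The 10 members with the most reads held 36.8%, 36.3% and 37.2% of those reads. Normalized counts also grow with transcript length, which was not used, so the order of members by counts is not an order of expression. By counts, 7 members were among the top 10 of all 3 libraries.

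The most counted member was LOC100537365, an uncharacterized locus, with 37707 normalized counts with vehicle, 35174 with the low dose and 40485 with the high dose. LOC556254, matched to hmgn1b and to human HMGN2 (nucleosome-binding proteins), had 16499, 18165 and 12076 in the same order. The apolipoprotein entry apoc1l, a lipid carrier of lipoprotein particles, had 16053, 12366 and 12151. All these values differed by less than 2-fold between libraries. LOC100537634, a fast skeletal muscle myosin heavy chain (human match MYH4), had 14908, 16330 and 14080 normalized counts. The uncharacterized locus LOC100537111 had 12939, 13128 and 24816, and its ratio of 500 μg/L to DMSO vehicle was 1.92 (1.88 to 1.96). It remained under the 2-fold threshold used here. The other uncharacterized loci of the top 10 were LOC100334405 with 33872, 36413 and 36926 normalized counts, LOC100534948 with 18346, 16745 and 20728, LOC100535659 with 15164, 15172 and 24946, and LOC100534848 with 13522, 16182 and 14416. The tenth, the KRT5-matched LOC100535319, is described with the members of low ratio.

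A human gene was given as a match for 259 members (49.7%), against 86.7% of mRNA and 72.1% of ncRNA entries. The E-value of the match was 0 for 82 members, at or under 1e-50 for 179 and over 1e-20 for 23, and the largest was 1e-10. The 259 matches fell on 211 human symbols, of which 190 were matched by 1 member and 21 by more. Most frequent were NLRC3 with 11 members and NLRP12 with 7, both nucleotide-binding leucine-rich repeat (NLR) proteins of innate immunity, then the zinc finger gene ZNF208 with 6, the ubiquitin ligase TRIM39 with 5 and PUS7L, related to pseudouridine synthases, with 4. For 196 members the human match was shared with at least 1 mRNA entry of the table, and for 63 it was not. Members with a match had medians of 202, 220 and 210 normalized counts in the vehicle, low dose and high dose libraries, and members without a match had 177, 196 and 166.

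The comparison of 500 μg/L BDE47 with DMSO vehicle asks which members differed at the high dose. An entry was called when its ratio was 2 or more, or 0.5 or less, and either library reached 10 normalized counts. Of 462 members at that level, 48 (10.4%) were called, 30 higher and 18 lower, against 12.2% called over all 18490 entries at that level (7.43% higher and 4.73% lower). The share among members was near, and slightly under, that of the whole table. Their median log2 ratio was 0.06, beside -0.01 for all entries, and 250 members lay above a ratio of 1 and 212 below it. Among the called members, 42 had a counting interval that left out a ratio of 1, 28 higher and 14 lower. By that stricter rule 9.09% of the 462 members were called, against 11.3% of all entries (7.08% higher and 4.18% lower).

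At 5 μg/L BDE47, 12 of 462 members (2.60%) were called against DMSO vehicle, 5 higher and 7 lower, beside 3.04% of all entries (1.02% higher and 2.03% lower). The median log2 ratio was 0.05, beside 0.01 for all entries. Directly between the doses, 49 of 465 members (10.5%) were called at 500 μg/L against 5 μg/L, 28 higher and 21 lower, beside 11.6% of all entries (7.46% higher and 4.15% lower). By the stricter rule 10 of 462 members (2.16%) were called at 5 μg/L, 4 higher and 6 lower, against 2.39% of all entries (0.794% higher and 1.59% lower). Between the doses 44 of 465 members (9.46%) were called, 28 higher and 16 lower, against 10.3% (6.74% higher and 3.52% lower). The called share was thus near the background in all 3 comparisons.

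**Figure D2:**
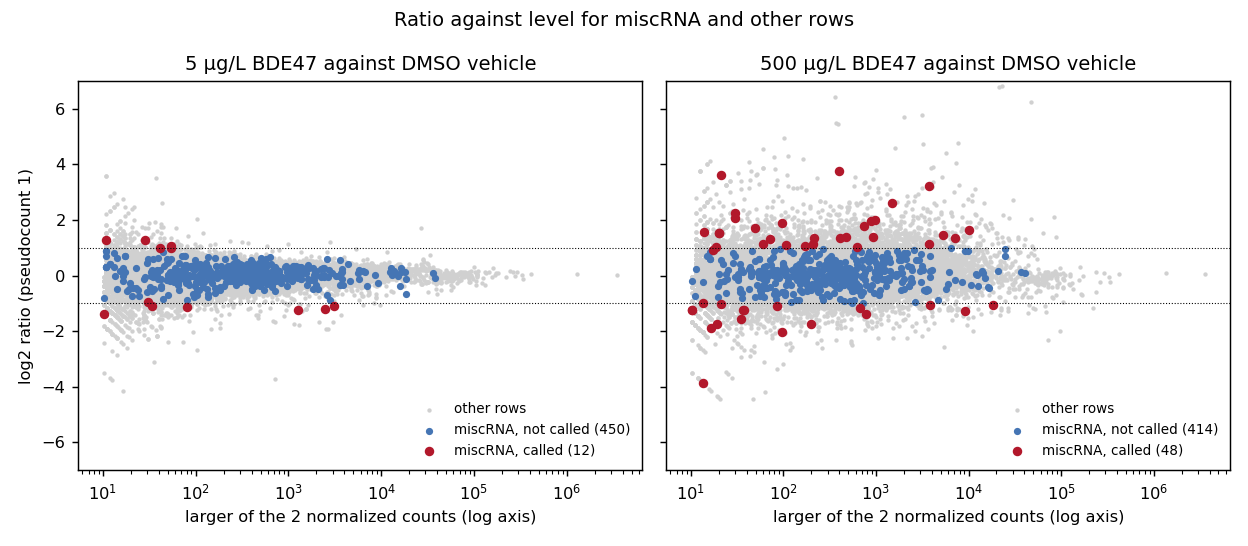
Log2 ratio to DMSO vehicle (vertical axis, pseudocount of 1) against the larger of the 2 normalized counts (horizontal axis, log axis) at the low and the high dose of BDE47; grey points are other entries, blue points members that were not called, red points called members, and dotted lines mark 2-fold. The 12 called members at 5 μg/L and the 48 at 500 μg/L lie within the spread of the other entries.

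Called members were most frequent at low levels. With 10 to 50 normalized counts in the larger library, 30.2% of 63 members were called at 500 μg/L, against 23.0% of all entries in that range. With 50 to 200 normalized counts, 6.06% of 132 members were called, against 11.9% of all entries. The shares were 7.36% of 163 members against 8.52% between 200 and 1000, and 8.65% of 104 members against 11.4% at 1000 and more. Of the 48 called members, 29 reached 50 normalized counts in either library.

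The largest ratio at 500 μg/L among members with at least 50 normalized counts belonged to LOC100535112, an uncharacterized locus with no human match. It had 28.5 normalized counts with vehicle, 27.3 with the low dose and 395 with the high dose, a ratio to vehicle of 13.9 (9.81 to 20.2). LOC100535949, also uncharacterized, had 396, 636 and 3708 in the same order, a ratio at 500 μg/L of 9.36 (8.51 to 10.3). In both, the 500 μg/L library stood far above the other two. LOC557375, matched to csdc2b, a cold shock domain RNA-binding protein, had 242, 302 and 1480, a ratio of 6.12 (5.39 to 6.96). LOC100538148, uncharacterized, had 243, 249 and 978, a ratio of 4.03 (3.53 to 4.61).

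Members whose matched genes have a signalling or mitochondrial role, and a TECTA-matched member, were also among the 10 largest ratios. LOC564158, matched to cyld2 and human CYLD, a deubiquitinase that restrains NF-κB signalling, had 224 normalized counts with vehicle, 294 with the low dose and 874 with the high dose, a ratio at 500 μg/L of 3.91 (3.40 to 4.5). LOC560548, matched to tifa, an adaptor that acts upstream of NF-κB through TRAF proteins, had 3176, 3776 and 9994, a ratio of 3.15 (3.03 to 3.27). Both were well above the other libraries at 500 μg/L. LOC570430, matched to afg3l1, a subunit of a mitochondrial inner membrane protease, had 216, 226 and 747, a ratio of 3.46 (3.0 to 4.01). LOC100002196, matched to mgarpa (human MGARP, a mitochondrial protein), had 1909, 2239 and 5260, a ratio of 2.76 (2.62 to 2.90). LOC100330610, whose human match TECTA is an extracellular matrix protein of the inner ear, had 177, 129 and 470, a ratio of 2.65 (2.24 to 3.14). It was lowest at 5 μg/L and its ratio of 500 μg/L to 5 μg/L was 3.64 (2.95 to 4.52).

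The rule for the smallest ratios gave 8 members. The lowest was LOC100499487, classed as lncRNA in the later annotation, with 95.6 normalized counts with vehicle, 55.8 with the low dose and 22.5 with the high dose, a ratio at 500 μg/L of 0.235 (0.135 to 0.388). LOC570693, matched to kctd20, a BTB domain protein, had 199.97, 196 and 58.7, a ratio of 0.294 (0.210 to 0.402). The 5 μg/L library of kctd20 stood beside the vehicle, while that of LOC100499487 lay between the other two. LOC100535300, uncharacterized, had 9124, 7610 and 3790, a ratio of 0.415 (0.399 to 0.432). LOC100334728, matched to eml4, a microtubule-binding protein, had 669, 499.6 and 301, a ratio of 0.450 (0.388 to 0.519). LOC553446, an lncRNA in the later annotation with the human match DCDC2, had 84.6, 66.7 and 38.7, a ratio of 0.458 (0.297 to 0.689). The other entry with that match, dcdc2b, had a ratio of 1.16 and was not called.

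The other 3 are genes or human matches with a known tissue. LOC567242, matched to cnga3a, a subunit of the cyclic nucleotide-gated channel of cone photoreceptors, had 779 normalized counts with vehicle, 793 with the low dose and 295 with the high dose, a ratio at 500 μg/L of 0.378 (0.327 to 0.436). Both retinal markers were also lower in that library: opn1sw1, the ultraviolet cone opsin, had 14324 at 500 μg/L against 72288 in DMSO vehicle, and rho, the rod opsin, had 40251 against 58956. Lower values were not particular to the retina: the liver marker fetub had 24376 against 96735. The pancreas markers try and ctrb1 and the neuron marker elavl3 were lower too. Little change was seen for snap25a, myhz1, mylz2 and apobl, and the blood marker hbae3 was higher, with 8972 against 5289. The part of these markers in the result was not tested.

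LOC100535319, whose human match is the basal keratin KRT5, had 18355, 11452 and 8881 normalized counts in the vehicle, low dose and high dose libraries. Its ratio was 0.484 (0.471 to 0.497) at 500 μg/L and 0.624 (0.610 to 0.638) at 5 μg/L. The skin markers krt4 and cyt1, like several markers of other tissues, were lower, with 97549 and 104090 at 500 μg/L against 219150 and 167383 in DMSO vehicle. At 5 μg/L these markers stood near the vehicle, with 210583 and 169249. Their part in the result was not tested. The entry col2a1b, a chain of type II collagen, the main collagen of cartilage and notochord sheath, had 3814, 3495 and 1853, a ratio of 0.486 (0.458 to 0.515) at 500 μg/L. The markers checked hold none for cartilage or notochord. Both members lay just inside the threshold of 0.5.

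**Figure D3:**
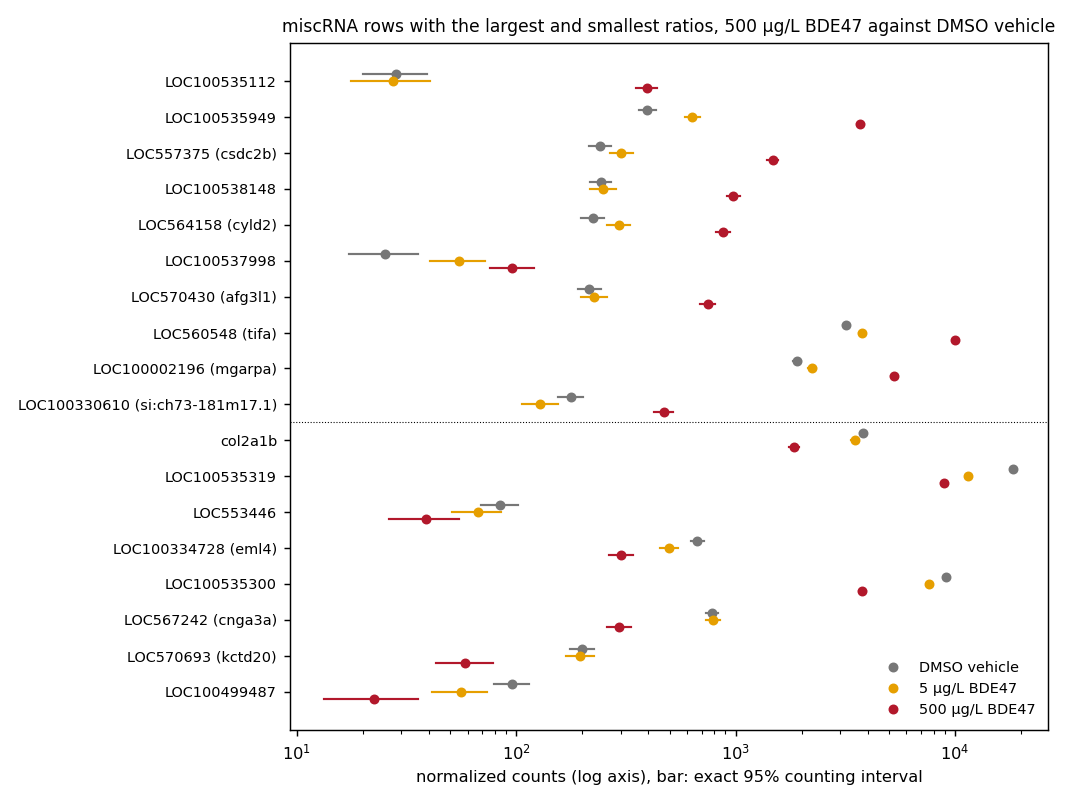
Normalized counts (horizontal axis, log axis) in the vehicle, low dose and high dose libraries for the 10 members with the largest ratios and the 8 with the smallest at 500 μg/L among called members with at least 50 normalized counts; bars are exact 95% counting intervals. For LOC100535112 the 500 μg/L library stands at 395 against 28.5 in DMSO vehicle, and for LOC100499487 at 22.5 against 95.6.

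The lowest ratios at 5 μg/L with at least 50 normalized counts belonged to 3 uncharacterized loci with neighbouring transcript numbers and to LOC100333177. LOC100536833 had 1281 normalized counts with vehicle, 538 with the low dose and 998 with the high dose, a ratio at 5 μg/L of 0.420 (0.379 to 0.465). LOC100537045 had 2472, 1063 and 2114, a ratio of 0.430 (0.40 to 0.462). LOC100537015 had 3065, 1436 and 2630, a ratio of 0.469 (0.440 to 0.499). In all 3 the 5 μg/L library was the lowest, and their ratios at 500 μg/L were 0.779, 0.855 and 0.858, which were not called. These 3 were all the called members at 1000 or more normalized counts, 3.09% of 97, against 0.492% of all entries in that range. Whether the 3 are separate transcripts was not tested. LOC100333177, whose human match LRRC8E is a subunit of volume-regulated anion channels, had 80.6, 36.1 and 55.0, a ratio at 5 μg/L of 0.447 (0.293 to 0.668).

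Both doses shared the DMSO vehicle library, so calls at the 2 doses are not independent, and the members called at both are given by their values alone. LOC100537998, uncharacterized, had 25.3 normalized counts with vehicle, 54.7 with the low dose and 96.2 with the high dose, with ratios to vehicle of 2.16 (1.36 to 3.48) and 3.80 (2.49 to 5.94) at the low and high dose. LOC100330254, whose human match RARRES3 is a phospholipase induced by retinoids, had 26.9, 54.7 and 60.0, with ratios of 2.03 (1.29 to 3.24) and 2.23 (1.41 to 3.57). The other two rested on few reads: LOC100006814 had 3.95, 10.9 and 13.7 normalized counts, and LOC100334048, the lower one, had 10.3, 3.28 and 3.75. With a pseudocount of 5 none of these members stayed 2-fold at 5 μg/L, and LOC100334048 was at 0.573 at 500 μg/L.

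The members were sorted by human symbol, or by zebrafish symbol where no human match was given, into 15 lists, and 11 lists had a member. The zinc finger list had 29 members at 10 or more normalized counts, of which 1 was called higher and 1 lower at 500 μg/L, with a median log2 ratio of 0.07 and 18 of the 29 above a ratio of 1. The list of NLR, GIMAP and TRIM immune families had 28, with 1 higher and 1 lower and a median of 0.21, and 21 of the 28 lay above a ratio of 1. Over all members the median was 0.06, with 250 of 462 above 1, and over all 18490 entries it was -0.01, with 9085 above 1 and 12.2% called. Of 8 transporters and pumps, 1 was called lower, 2 lay above 1 and the median was -0.42. Of 6 muscle and cytoskeleton members 1 was called lower and 0 lay above 1, with a median of -0.11, and of 6 matrix and adhesion members 1 was called lower and 3 lay above 1, with a median of -0.35. These were the KRT5-matched locus and col2a1b. None of 3 drug metabolism members and none of 4 ribosome and translation members was called, with 2 and 3 above 1 and medians of 0.10 and 0.17. Of 4 receptors and channels and of 2 immune receptors or cytokines 1 each was called lower and 1 each lay above 1, with medians of -0.33 and -0.37. Of 3 kinases and of 2 proteases 1 each was called higher and 2 and 1 lay above 1, with medians of 0.18 and 1.33. Lists this small are given as counts only. The lists for heat shock, immediate early, histone and mobile element symbols had no member.

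The called members of these lists had low counts in most cases. LOC799827, matched to trim35-45, a tripartite motif protein, had 84.6 normalized counts with vehicle, 137 with the low dose and 215 with the high dose, a ratio at 500 μg/L of 2.54 (1.98 to 3.27). LOC100006636, whose human match is the ubiquitin ligase TRIM39, had 34.8, 33.9 and 11.2, a ratio of 0.323 (0.139 to 0.671). LOC100535267, whose human match is the zinc finger gene ZNF569, had 27.7, 25.1 and 71.2, a ratio of 2.57 (1.66 to 4.04). Opposite directions thus occurred within the immune list. The fructose transporter slc2a5 had 19, 13.1 and 5.00, a ratio of 0.263 (0.0664 to 0.767). LOC557933, whose human match GPR132 is a G protein-coupled receptor, had 16.6, 14.2 and 3.75, a ratio of 0.226 (0.0431 to 0.756). LOC100334422, whose human match is the kinase PIM3, had 6.32, 1.09 and 20.0, a ratio of 3.16 (1.28 to 8.53). With a pseudocount of 5 the ratio of slc2a5 was 0.417 and that of LOC557933 was 0.405. The intervals of ZNF568-matched LOC100537482 (0.184 to 1.06, ratio 0.468) and CD22-matched LOC100003760 (0.134 to 1.31, ratio 0.465) held a ratio of 1.

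**Figure D4:**
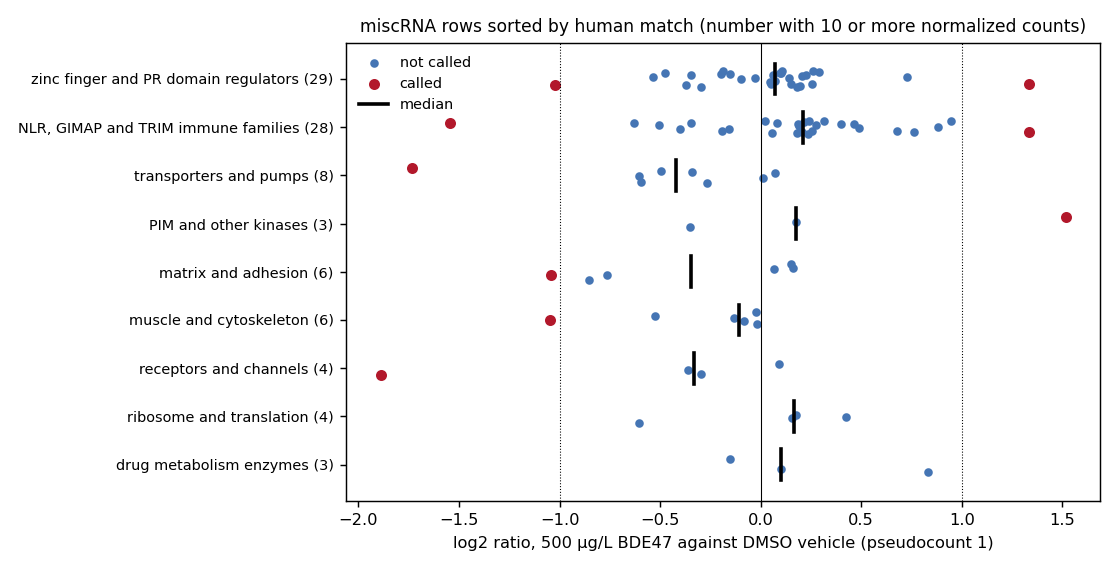
Log2 ratio of 500 μg/L BDE47 to DMSO vehicle (horizontal axis, pseudocount of 1) for members sorted into lists by human match, or without one by zebrafish symbol. Lists shown have 3 or more members at 10 or more normalized counts. Red points were called, bars are medians, and dotted lines mark 2-fold. The zinc finger list has a median of 0.07 and the NLR, GIMAP and TRIM list one of 0.21, each with 1 member called higher and 1 lower.

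Where a member shares its human match with other entries, reads of near-identical copies may have been split or shared between them, so the values are given side by side. LOC100537629, a cathepsin L1-like locus matched to CTSL2, a lysosomal protease, had 0.790 normalized counts with vehicle, 2.19 with the low dose and 21.2 with the high dose, a ratio of 26.9 (4.21 to 1123) that rests on a single read with vehicle and was 4.53 with a pseudocount of 5. The 9 other entries matched to CTSL2 had a median ratio of 15, between 1.22 and 37.9, and 8 were called higher. These 8 had only 1.58 to 5.53 normalized counts with vehicle, and LOC100537665 and MGC174155 had equal values in every library. All 8 thus rest on few vehicle reads and, like LOC100537629, met the minimum of 10 through the high dose library alone. With so few vehicle reads, meeting the minimum largely fixed the direction of the call. The pair with equal values may share its reads. Whether the others share reads was not tested. The entry at 1.22 was ctsl, with 8264, 26873 and 10055 in the vehicle, low dose and high dose libraries. For KRT5, the member's ratio of 0.484 stood beside 0.478 for the other entry, and for COL2A1 col2a1b had 0.486 beside 0.407. By contrast, the CYLD-matched member had 3.91 while the 4 other entries lay between 0.816 and 1.30, with none called. Of the 32 other TRIM39-matched entries, 29 reached 10 normalized counts, and these had a median of 0.937, with 2 higher and 6 lower. At that level the 21 other ZNF569 entries had a median of 0.989, with none called. The 9 others of TRIM35 had a median of 0.948, with 1 higher and 1 lower. For PIM3, 36 others had a median of 0.875, with 2 higher and 0 lower. For TECTA, 7 others had a median of 1.34, with 1 higher and 0 lower. The 2 others of G2E3 lay at 0.763 and 1.49, with none called. No other entry carried the match of TIFA, MGARP, KCTD20, EML4 or AFG3L2.

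**Figure D5:**
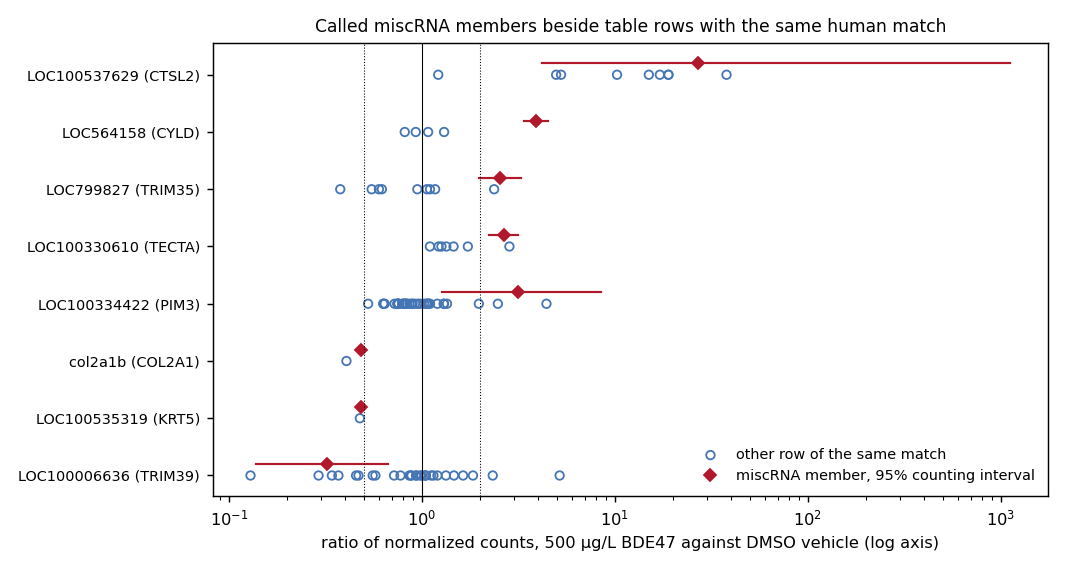
Ratio of 500 μg/L BDE47 to DMSO vehicle (horizontal axis, log axis) for 8 called members, chosen after their values were seen (red diamonds, bars for 95% counting intervals) and for the other table entries with the same human match (blue circles); dotted lines mark 2-fold. The CTSL2 entries lie mostly above 2, all but ctsl with few reads in DMSO vehicle. The KRT5 and COL2A1 entries lie at 0.478 and 0.407, and the 4 other CYLD entries around 1.

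A few more members are given here that were chosen after their values were seen. LOC567550, whose human match G2E3 is a ubiquitin ligase, had 13.4 normalized counts with vehicle, 13.1 with the low dose and no read with the high dose. Set at the floor of 3 reads in the high dose library, it would be 3.59-fold lower than DMSO vehicle. That value depends on the chosen floor and is not the limit of a counting interval. LOC100537295, classed as lncRNA later, had 2812, 1547 and 7106, so that 500 μg/L was 4.59 (4.33 to 4.87) times 5 μg/L and 2.53 (2.42 to 2.64) times DMSO vehicle. Its 3 libraries lay in the order 5 μg/L, vehicle, 500 μg/L. LOC556873, matched to pfn4, an actin-binding profilin, had 1725, 2616 and 3771, a ratio at 500 μg/L of 2.19 (2.07 to 2.31).

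Calls by human match and by later class can be read against the same background of 12.2%. At 500 μg/L, 28 of 233 members with a human match were called (12%), 16 higher and 12 lower, and 20 of 229 without one (8.73%), 14 higher and 6 lower. Members of the later protein-coding class gave 15 higher and 10 lower of 201, lncRNA 3 and 2 of 36, and unmatched members 12 and 6 of 207. In the pseudogene, transcribed pseudogene and misc_RNA classes 0 of 7, 0 of 5 and 0 of 6 were called, too few to set against the background. In DMSO vehicle the median was 321 normalized counts for protein coding, 158 for lncRNA, 125 for unmatched, 32.4 for pseudogene and 23.7 for transcribed pseudogene members.

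Members nearest the threshold at 500 μg/L were mrap at 2.01 and LOC100538114 at 2.03 on the inside and LOC100000294 at 1.97 and LOC100535125 at 1.96 on the outside. On the lower side col2a1b at 0.486 and LOC100535319 at 0.484 were inside, and LOC799158 and LOC100330496, both at 0.506, were outside. At 5 μg/L, LOC569119 at 2.02 and LOC797945 at 0.496 were inside, and LOC100537116 and LOC569173, both at 1.98, and LOC100534709 at 0.532 were outside.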

How the data were processed

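Total RNA of pooled whole larvae was sequenced once per group after poly(A) capture. The authors mapped reads to the zebrafish (Zv9) and human (hg19) genomes and deposited TMM-normalized counts per transcript, a signal scaled between libraries and not corrected for length. The counting tool, annotation version and strand handling are not given in the sources used here. All deposited values (100%) were whole multiples of 1 read (tolerance 0.01, largest deviation 0.00264), and the recovered reads served for the counting intervals. The column headed S was taken as the DMSO vehicle, as the study names its groups.

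Ratios of normalized counts were computed on the whole table (Python 3.11.15, pandas 2.3.3, scipy 1.17.1), and log2 ratios used a pseudocount of 1. Alternatives were no minimum level or one of 50, scaling to equal library totals or to a median log2 ratio of 0, a pseudocount of 5, a counting interval without 1, the MARS test of DEGseq, and edgeR 4.0.16 (R 4.3.3) with an assumed BCV of 0.2 or 0.4. None has a replicate behind it. The rule was tried on simulated data for 500 μg/L against DMSO vehicle. All 200 changed entries and 0 of 10039 unchanged entries were called, and 95.4% of intervals held the simulated ratio. How the rule performs on ratios near 2 or on entries with few reads was not tested. The MARS test put 8.77% of those unchanged entries under 0.05, and 5.54% of 10239 entries when none was changed. In these simulations its calls thus ran above the nominal rate. The changed entries of the first simulation had also shifted the library total. The simulated results do not give the rate of false calls in the real libraries. The simulation drew counting error only, and fewer entries were scored than the 18490 at the minimum level. In the real data, 1 library a group shows no spread between pools. The 48 members called with the high dose had a median of 114 reads in their larger library, and 19 were under 50 normalized counts. For the 12 called with the low dose these values were 46.5 reads and 6 members.

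Members named were the 10 most counted in the vehicle library, up to 10 largest and 10 smallest ratios at 500 μg/L and up to 5 each at 5 μg/L among called members with at least 50 normalized counts, those called at both doses, and up to 2 called members of each list. Members and lists were chosen with earlier results of these data known. Lists follow the letters of the human symbol, or of the zebrafish symbol where no human match was given. A few members may therefore not have the list's function. The blank control is not analysed here. The result for 1 called member is not reported here.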

Additional observations from a re-analysis of the deposited data

How the results depend on the processing

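The 48 calls at 500 μg/L against DMSO vehicle became 74 with no minimum level, 29 with a minimum of 50 normalized counts, 18 by edgeR with an assumed BCV of 0.2 and 0 with 0.4. The 12 calls at 5 μg/L against DMSO vehicle became 40 with no minimum, 6 with a minimum of 50, 5 with a pseudocount of 5, and 0 by edgeR with either BCV. The 49 calls at 500 μg/L against 5 μg/L became 78 with no minimum, 29 with a minimum of 50, 14 by edgeR with a BCV of 0.2 and 1 with 0.4. The cause was not tested beyond the settings themselves. The other scalings, the counting interval and the MARS test stayed within 1.5 times of these counts, with MARS at 47, 13 and 52. Leaving out members with reads identical to another entry, an alternative chosen after seeing the data, gave 48, 11 and 49. Apart from the counting interval, shares over all entries are not given for these settings. The counts alone thus do not tell whether members differ from the whole table. Of 387 alternative ratios of named members 12 moved beyond their counting interval, all under total scaling. No called ratio crossed 1, while 2 uncalled ones at 5 μg/L did: LOC100535659, at 1.00, was 0.985 under total scaling and 0.994 with the median set to 0, and LOC100537111, at 1.01, was 0.999 under total scaling. A pseudocount of 5 moved ratios of low members by over 1.5 times within their counting intervals, as for LOC557933 (0.226 to 0.405), slc2a5 (0.263 to 0.417) and LOC100334048 (0.365 to 0.573, no longer 2-fold) at 500 μg/L; LOC100537482 (0.569) and LOC100003760 (0.610) also left the 2-fold range there. Without the member of most reads the shares of library reads were 1.52% for vehicle, 1.5% for the low dose and 1.6% for the high dose, against 1.64%, 1.61% and 1.71%. No paired analysis was possible because each group has 1 library. No spread between pools is known, so a ratio of 2 cannot be set against the variation between pools of larvae, and members under 50 normalized counts rest on few reads.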

Other observations

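Among members with at least 50 reads over the 3 libraries, 9 had reads identical to those of another entry in every library, so the pair may share 1 set of reads. LOC100536281 had 5845, 3726 and 2016 reads with vehicle, the low dose and the high dose, the same as crygmx, a lens crystallin mRNA. LOC569335 had 908, 723 and 923 reads, the same as LOC100535797. LOC100534985 had 251, 186 and 248, the same as LOC792693. LOC795192, which was called lower at 5 μg/L, had 43, 14 and 18, the same as LOC100535087. LOC100149015 matched LOC555985 in the same way, and 4 members formed the pairs LOC100535345 with LOC100535623 and LOC100535471 with LOC100537595. How reads were assigned to overlapping entries was not tested.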
